A study of Xenopus laevis with 3 samples.

Results

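VegT and mixer are genes known for their part in the first steps of endoderm formation in Xenopus, and endodermin has been used as an endoderm marker. The spots described here carry these names. They were found by searching the spot names of the cDNA array for cerberus, endodermin, VegT, antipodean (another name for VegT) and mixer, ignoring case, and by adding 1 VegT clone by its identifier. Of 21504 spots, 6 matched: 2 named endodermin (XL068h01 and XL099n14), 2 named VegT (XL0c2c17 and XL0c2c18) and 2 named mixer (XL0c2i24 and XL0c2j01). No name contained cerberus or antipodean. The array does carry 2 spots named Xcer (XL0c2i18 and XL0c2i19), and the RefSeq gene table of Xenopus laevis lists xcer1 as a synonym of cer1.S. They are described beside the 6 spots, are counted in none of the totals, and were picked after the spot names had been read.

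The study set anterior against posterior endoderm of Xenopus laevis, taken at stages 30, 39 and 46. The endoderm was isolated and cut by hand; the anterior region goes on to form organs such as lung, stomach, pancreas and liver, and the posterior region the intestine. No genotype, treatment or number of embryos is named in the labels for any of the 6 groups of region and stage. At each stage the cDNA of both regions was hybridised together to 2 spotted arrays, called A and B here, and on all 6 arrays Cy5 marked the anterior and Cy3 the posterior cDNA. Since no array had the dyes exchanged, dye and region cannot be told apart in a ratio at 1 stage. The labels do not say that A and B came from separate dissections, so the p-values measure the spread between hybridisations only.

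Endoderm in the frog is set up by maternal products that lie in the vegetal part of the egg. VegT is a T-box transcription factor whose maternal mRNA is held there, and it turns on Nodal-related signals and endodermal transcription factors. Mixer is a paired-type homeodomain transcription factor that acts under these signals in the prospective endoderm of the gastrula. Cerberus is a secreted protein made by the anterior endoderm of the gastrula that binds Nodal, BMP and Wnt ligands. Endodermin is related to alpha-2-macroglobulin and has been used as a marker of the whole endoderm from neurula stages on. RefSeq lists endodermin and Edd as synonyms of a2m.S, and antipodean, xombi and brat as synonyms of vegt.L and vegt.S. It lists mixer.L beside mix1.L and the bix1 genes, and mixer.S beside mix1.S and the bix1 genes, which encode homeodomain proteins of the same family.

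Across probes, the log2 ratios of both arrays had a correlation of 0.848 at stage 30, 0.947 at stage 39 and 0.935 at stage 46. The share of spots well above background, meaning a median over the local background median plus 2 background SDs, ran from 39.5% to 62.7% over the 12 channels. All 6 spots passed the filter on dim spots, as did 15646 of all spots. Mixer XL0c2i24 did so through its posterior signal alone. The log2 ratio of anterior over posterior of the tested foregut and liver spots had a median of 0.36, 0.34 and 0.08 at stages 30, 39 and 46, and that of the spots for intestine and posterior genes had -0.24, -0.84 and -0.15. The spots of a list did not all go the same way. The transferrin spot XL105j13, for a liver plasma protein, had 2.35, 0.47 and 0.84, while the ficolin spot XL060m16 of the same list had 0.14, -1.20 and -0.60. The posterior homeobox gene hoxa10 had 0.04, -1.51 and -0.64. No spot was named for albumin, globin or sox17, so the liver, blood and endoderm lists rest on other genes. In dissected tissue, fewer cells of a type and less RNA per cell cannot be told apart.

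The endodermin ratio changed sign between stages. It was slightly above 0 at stage 30, about 3-fold toward posterior at stage 39, and slightly above or near 0 at stage 46. Since dye and region were not separated, the side at 1 stage cannot be told from a dye effect. The ratio of XL099n14 (log2, anterior over posterior) was 0.63 on array A and 0.51 on array B at stage 30. It was -1.58 and -1.52 at stage 39, and 0.40 and 0.32 at stage 46. Both stage 39 arrays lay far below the other 4, which were all above 0. The ratio of XL068h01 was 0.43 and 0.17 at stage 30, -1.66 and -1.74 at stage 39, and 0.15 and -0.07 at stage 46. Again only the stage 39 arrays were low, and on 1 of the stage 46 arrays the ratio was below 0.

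**Figure D1:**
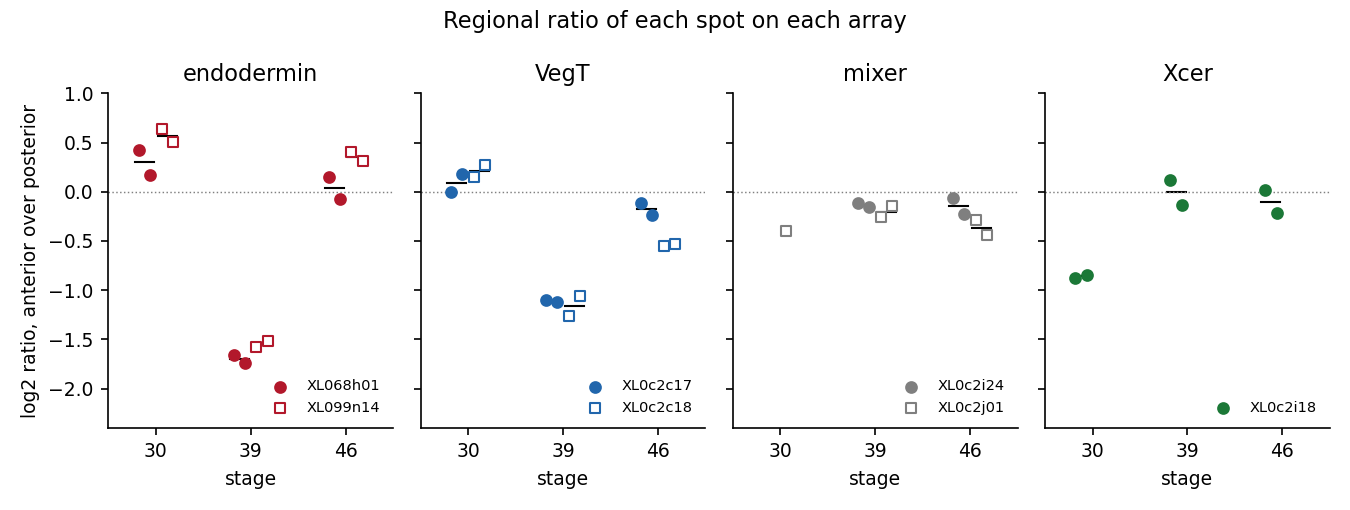
Log2 ratio of anterior over posterior endoderm (vertical axis) on each array by stage (horizontal axis) for the endodermin, VegT, mixer and Xcer spots, 1 point per array and a black bar at the mean where both arrays of a stage have a value. Both endodermin spots lie between -1.74 and -1.52 and both VegT spots between -1.26 and -1.06 at stage 39, while Xcer is low at stage 30.

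At stage 30, 3 of the 4 tested endodermin and VegT spots passed the threshold (limma, adjusted p of 0.05 over all probes), all higher in anterior endoderm, where 56.4% of all 14105 probes passed and 28.6% passed as anterior higher. Endodermin XL099n14 had a mean log2 ratio of 0.57 ± 0.06 (SE, 2 arrays), a fold of 1.49 (adjusted p = 0.00025). Endodermin XL068h01 had 0.30 ± 0.08 (adjusted p = 0.0155). On neither stage 30 array was this spot well above background, in either dye. The pixels around it varied widely: the anterior background SD was 12207 on array A, against a background median of 341. On these arrays 9% to 10% of its anterior pixels were saturated, against 0% for the other endodermin spot and both VegT spots. No fold is therefore given for it. This spot was no longer past the threshold without array A of stage 30, where it was 0.17 (adjusted p = 0.17).

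At stage 39, 5 of the 6 spots passed, all lower in anterior endoderm, where 63.1% of 13935 probes passed and 31.7% passed as anterior lower. Endodermin had -1.70 ± 0.08 on XL068h01 (adjusted p = 4.82e-06) and -1.55 ± 0.06 on XL099n14 (adjusted p = 1.71e-06), folds of 3.25 and 2.92 toward posterior. Only 77 of the 13935 probes were lower than XL068h01, which is 0.553%, and 112 were lower than XL099n14, which is 0.804%. The median over all probes was 0.01. XL068h01 was well above background on 1 of the 2 arrays of this stage and XL099n14 on both.

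At stage 46, 3 of the 6 spots passed, where 55.6% of 14049 probes passed, 30.4% as anterior higher and 25.2% as anterior lower. Of the 3 spots, 1 endodermin spot was higher, and 1 VegT and 1 mixer spot were lower. Endodermin XL099n14 was higher in anterior endoderm by 0.36 ± 0.06 (adjusted p = 0.00177), a fold of 1.28. XL068h01 had 0.04 (95% interval -0.15 to 0.23, adjusted p = 0.708). The clones therefore differed in their call at this stage, although both were well above background on both arrays. The share of all probes below them was 85.6% for XL099n14 and 52.2% for XL068h01.

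The endodermin ratio fell from stage 30 to 39. The change was -2.12 ± 0.08 for XL099n14 (adjusted p = 9.61e-06) and -2.0 ± 0.12 for XL068h01 (adjusted p = 1.85e-05). Of 12787 probes tested for this change, 19 fell more than XL099n14. No rank is given for XL068h01, whose change starts from the stage 30 spot that was not well above background. All 4 endodermin and VegT spots that could be tested passed in this comparison, where 60.1% of all probes passed and 30.5% passed as lower. From stage 39 to 46 the endodermin ratio rose by 1.91 ± 0.08 and 1.74 ± 0.12 (adjusted p = 5.52e-06 and 3.18e-05). Here 4 of 6 spots passed, all higher, where 50.2% of probes passed and 28.1% passed as higher. Across the whole span from stage 30 to 46 neither endodermin clone passed, with -0.21 (adjusted p = 0.065) for XL099n14 and -0.26 (adjusted p = 0.0912) for XL068h01. The 3 comparisons share arrays, so they are not independent of each other. The authors' deposited table gave the same course for endodermin, with log2 ratios of 0.29, -1.69 and -0.02 for XL068h01 and 0.56, -1.45 and 0.36 for XL099n14 at the 3 stages.

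**Figure D2:**
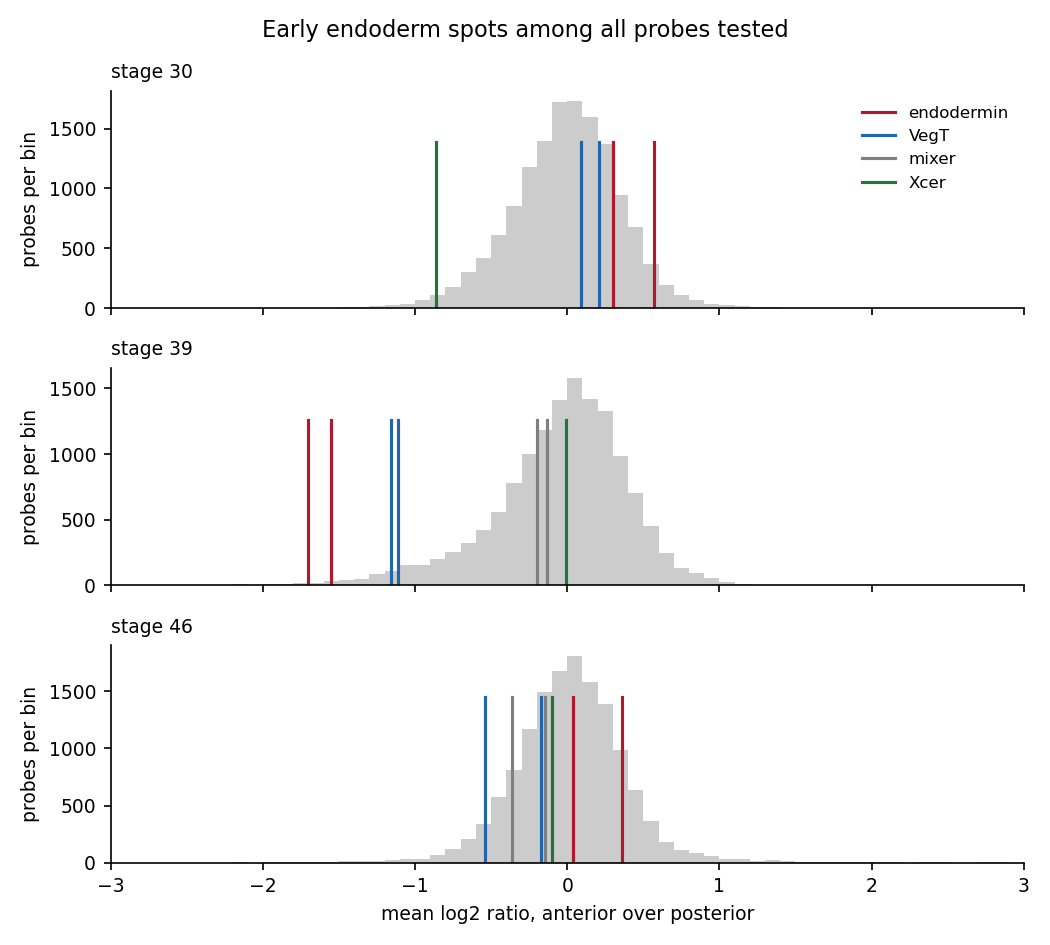
Number of probes (vertical axis) by mean log2 ratio of anterior over posterior endoderm in bins of 0.1 (horizontal axis) at each stage, with a coloured line at each tested endodermin, VegT, mixer and Xcer spot. At stage 39 the endodermin lines at -1.70 and -1.55 lie in the far left tail and the VegT lines at -1.16 and -1.11 nearer the bulk.

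The levels within each region were compared between stages. They are given as log2 intensity after normalisation between arrays, for the 11791 probes with values on all 6 arrays. The level of a spot depends on its clone as well as on the RNA, so levels are compared only within a spot. In posterior endoderm, endodermin XL099n14 was at 11.39 and 11.03 on the stage 30 arrays, 13.92 and 13.49 at stage 39, and 11.81 and 12.50 at stage 46. The stage 39 arrays were the highest and did not overlap with the others. Endodermin XL068h01 was at 11.34 and 11.96, then 12.93 and 13.12, then 11.76 and 11.80 in posterior endoderm. Its stage 39 arrays were again above all others. How many of all probes had stage 39 arrays apart from the others was not counted.

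In anterior endoderm, XL099n14 was at 12.02 and 11.54 at stage 30, 12.34 and 11.97 at stage 39, and 12.21 and 12.82 at stage 46. Stage 39 overlapped with both other stages, and stage 46 lay above stage 30. XL068h01 was at 11.77 and 12.13, then 11.27 and 11.38, then 11.92 and 11.72. Its stage 39 arrays were the lowest, by a smaller step than the posterior rise.

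From stage 30 to 39, endodermin rose in posterior endoderm by 2.49 ± 0.30 on XL099n14 (5.64-fold, adjusted p = 0.00063) and by 1.38 ± 0.33 on XL068h01 (adjusted p = 0.0294). These were 2 of 4 tested endodermin and VegT spots past the threshold, where 7.24% of probes passed and 3.54% passed as higher. The XL068h01 rise starts from the stage 30 spot with the uneven background, so no fold is given. It missed the threshold without array A of stage 30 or without any 1 array of stages 39 and 46 (adjusted p from 0.0516 to 0.196), and XL099n14 stayed past it in each case. In anterior endoderm the change was 0.38 ± 0.30 for XL099n14 (adjusted p = 0.44) and -0.62 ± 0.33 for XL068h01 (adjusted p = 0.241), which did not pass. The difference between the regions in these changes is the ratio change given above, which passed for both clones.

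From stage 39 to 46, posterior endodermin fell by 1.55 on XL099n14 (adjusted p = 0.0114), the 1 of 4 spots past the threshold, where 5.72% of probes passed and 2.96% passed as lower. XL068h01 had -1.25 ± 0.33 (adjusted p = 0.0511). The XL099n14 call was lost without array A or array B of stage 39 or array A of stage 46 (adjusted p = 0.144, 0.0632 and 0.161). In anterior endoderm the corresponding values were 0.36 (adjusted p = 0.509) and 0.49 (adjusted p = 0.41), and no spot of the 4 passed, where 5.63% of probes passed. At an unadjusted p under 0.05 in the limma fit 0 of the 4 passed there as well. Between stages 30 and 46 endodermin XL099n14 was higher by 0.73 in anterior (adjusted p = 0.122) and by 0.94 in posterior endoderm (adjusted p = 0.0612), and XL068h01 had -0.13 and 0.13. None of the 4 spots passed in either region, where 14.3% of probes passed in anterior and 12.8% in posterior endoderm. At an unadjusted p under 0.05 in the limma fit, 2 of the 4 passed in anterior endoderm (XL099n14 and the VegT spot XL0c2c18) and 1 in posterior endoderm (XL099n14). The share of all probes under that unadjusted threshold was not counted, so the unadjusted counts cannot be read as a result about these spots. In order of mean level, XL099n14 was highest in posterior endoderm at stage 39 (13.71), followed by anterior at stage 46 (12.52), anterior at stage 39 and posterior at stage 46 (12.16 each), anterior at stage 30 (11.78) and posterior at stage 30 (11.21). The highest and the lowest of these stood clear of their neighbours on both arrays, and each of the 4 between them overlapped with the next.

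**Figure D3:**
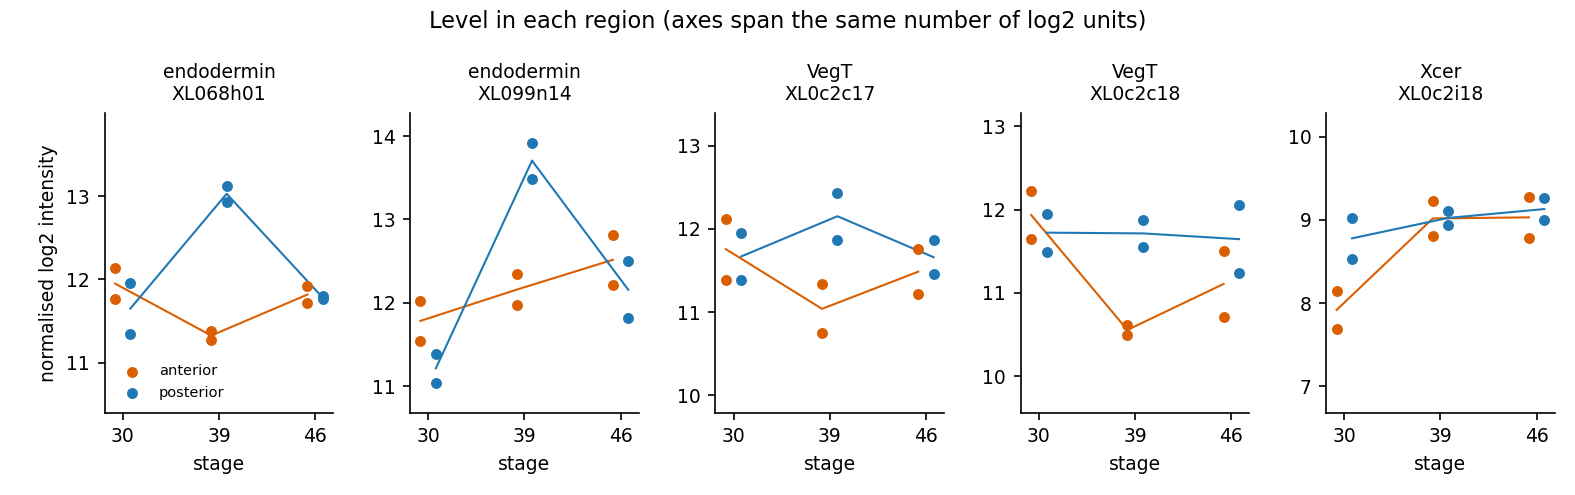
Normalised log2 intensity (vertical axis) in anterior (orange) and posterior (blue) endoderm by stage (horizontal axis) for the endodermin, VegT and Xcer spots with values on all 6 arrays, 1 point per array and a line through the stage means. Mean posterior endodermin is highest and mean anterior VegT lowest at stage 39.

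VegT followed a course of the same direction with a smaller step. The ratio of VegT XL0c2c17 was 0.00 and 0.18 at stage 30, -1.10 and -1.12 at stage 39, and -0.11 and -0.24 at stage 46. That of XL0c2c18 was 0.15 and 0.27 at stage 30, -1.26 and -1.06 at stage 39, and -0.55 and -0.53 at stage 46. On both spots the 3 stages did not overlap, with stage 39 lowest and stage 30 highest. The share of all probes whose stages were also apart was not counted. XL0c2c17 was well above background in both regions on all 6 arrays, and XL0c2c18 on 4 of them.

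At stage 39 VegT was lower in anterior endoderm by a log2 ratio of -1.11 ± 0.07 on XL0c2c17 (adjusted p = 9.62e-06) and -1.16 ± 0.07 on XL0c2c18 (adjusted p = 9.29e-06), folds of 2.16 and 2.23 toward posterior. Of all probes, 2.93% were lower than the first spot and 2.55% lower than the second. At stage 30 XL0c2c17 had 0.09 (95% interval -0.06 to 0.24, adjusted p = 0.284). XL0c2c18 had 0.21 ± 0.07, which passed (adjusted p = 0.0297) and did not without array B of stage 30 or either array of stage 46 (adjusted p from 0.0537 to 0.202). At stage 46 XL0c2c17 had -0.17 (95% interval -0.33 to -0.02, adjusted p = 0.0526) and XL0c2c18 was lower in anterior endoderm at -0.54 ± 0.07 (adjusted p = 0.00052).

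The VegT ratio fell from stage 30 to 39, with changes of -1.2 ± 0.09 on XL0c2c17 (adjusted p = 4.71e-05) and -1.37 ± 0.10 on XL0c2c18 (adjusted p = 3.23e-05). It rose from stage 39 to 46 by 0.94 and 0.62 (adjusted p = 0.000192 and 0.00143). Over the whole span from stage 30 to 46 it changed by -0.26 (adjusted p = 0.0442) and -0.75 (adjusted p = 0.000572). These 2 were the calls among 4 spots tested, where 53.3% of probes passed and 24.7% passed as lower. With 1 array left out the XL0c2c17 change over this span was as small as -0.17, and its call was lost without array B of stage 30 or any 1 array of stages 39 and 46 (adjusted p from 0.07 to 0.226).

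Of the VegT levels, 1 change passed, that of XL0c2c18 in anterior endoderm, and no test compared the levels of VegT with those of endodermin. In anterior endoderm XL0c2c18 was at 11.64 and 12.23 at stage 30, 10.62 and 10.49 at stage 39, and 11.51 and 10.71 at stage 46. The stage 39 arrays were the lowest. In posterior endoderm it was at 11.49 and 11.95, 11.88 and 11.55, and 12.06 and 11.24, and the stages overlapped. The anterior change from stage 30 to 39 was -1.38 ± 0.34 for XL0c2c18 (2.60-fold lower, adjusted p = 0.0255) and -0.72 ± 0.33 for XL0c2c17 (adjusted p = 0.18). The first was the 1 call among 4 spots, where 11% of probes passed and 6.23% passed as lower, and it was lost without array B of stage 30 or either array of stage 39 (adjusted p = 0.115, 0.12 and 0.126). In posterior endoderm the change was -0.01 (adjusted p = 0.991) and 0.48 (adjusted p = 0.421). XL0c2c17 was at 11.39 and 12.12, 11.33 and 10.75, and 11.75 and 11.22 in anterior endoderm, and at 11.39 and 11.94, 12.44 and 11.87, and 11.86 and 11.46 in posterior endoderm. Its 2 arrays of a stage were as far apart as the stages, and no neighbours in the order of its 6 means differed beyond that spread.

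Among the control spots on the same plate, those of lambda phage DNA changed between stages in the same direction as the VegT ratio. Those of GFP DNA stayed near 0 but were dim at stages 39 and 46. Of 14 spots of lambda phage DNA, 12 to 14 were found on each array. They had a mean log2 ratio, over the medians of both arrays, of 0.44, -1.05 and -0.63 at stages 30, 39 and 46. Their single values ran from -0.09 to 0.85, from -1.36 to -0.72 and from -0.84 to -0.12. Both VegT spots lay inside these ranges at stage 39, and both endodermin spots, at -1.74 to -1.52, lay below the range. At stage 46 VegT XL0c2c18 lay inside the lambda range of each array. VegT XL0c2c17 lay above it there, at -0.11 on array A and -0.24 on array B, where the highest lambda values were -0.12 and -0.36. The lambda spots were not dim, with a median anterior intensity over background of 8011 and 4609 on the stage 30 arrays and of 704 to 994 at the later stages. The labels do not say whether lambda RNA was added to the labelling reactions. Of 5 spots of GFP DNA, 2 were found on each stage 30 array and 3 to 4 on the later arrays, and these had 0.05, -0.02 and 0.03. Their median intensity over background at stage 39 was 180.5 and 117 in anterior and 311.5 and 179 in posterior endoderm. At stage 46 it ran from 49 to 136. A ratio at such low signal can rest on the background correction, and the GFP spots were not run with plain background subtraction. Their values near 0 therefore cannot show that they did not move. The 203 unnamed spots of the plate, of which 31 to 60 were found on each array, had 0.17, -0.23 and 0.13. Their single values ran from -1.42 to 0.99 at stage 39. No kind of control spot had weight in the normalisation. The part of whatever lit the lambda spots in the VegT ratio was not tested.

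**Figure D4:**
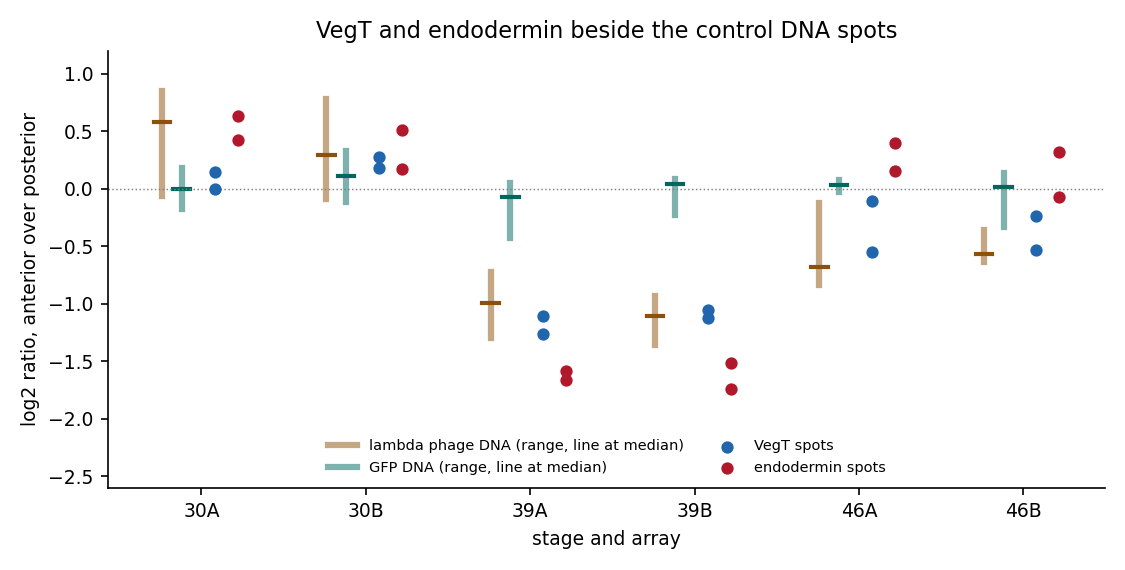
Log2 ratio of anterior over posterior endoderm (vertical axis) on each of the 6 arrays (horizontal axis) for the VegT and endodermin spots, beside the range (bar) and median (line) of the lambda phage and GFP DNA spots that were found. VegT lies within the lambda range at stage 39, endodermin lies below it, and GFP stays near 0.

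The VegT, mixer and Xcer spots come from 1 plate on which most genes fill a pair of neighbouring wells with the same name. It is not given whether a pair is 1 clone spotted again. Cy3 intensities were compared within pairs without background subtraction, and spots that were dim or not found were kept. Those of the VegT pair differed by 0.20 (mean absolute log2 difference over 6 arrays), those of the mixer pair by 0.40 and those of the Xcer pair by 1.08. Over the earlier wells of the plate the median was 0.55 for 60 neighbouring pairs with the same name and 1.15 for 50 with different names. From the well named E.hairy on, which holds mixer and Xcer, it was 0.45 for 14 pairs with the same name and 0.38 for 14 with different names. The place of this split was chosen after the values had been seen. In that stretch a shared name did not go with a closer intensity. Spots near background look alike in this measure whatever their names, so it cannot decide whether the names there match the spotted clones. That was not tested.

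Mixer was dim, and was well above background in both regions only on XL0c2j01 at stage 46. Spot XL0c2i24 was not found by the scanner software on either stage 30 array, and XL0c2j01 was found on 1 of the 2, so neither was tested there. The ratio of XL0c2i24 was -0.11 and -0.16 at stage 39 and -0.07 and -0.23 at stage 46. That of XL0c2j01 was -0.40 on array A of stage 30, -0.26 and -0.14 at stage 39, and -0.29 and -0.44 at stage 46. All these values were below 0. Their size rested on the background correction. With plain background subtraction in place of normexp, stage 39 had -0.67 on XL0c2i24 and -0.93 on XL0c2j01 (adjusted p = 0.000537 in the limma fit for XL0c2j01). Stage 46 had -0.51 and -0.63 (adjusted p = 0.00344 for XL0c2j01). XL0c2i24 passed the filter through its posterior signal alone, so a test of its ratio cannot count toward a posterior side. The authors' deposited table, whose stage 39 ratios have a median of -0.32 over all clones, gave -1.30 and -1.21 at stage 39 and -0.41 and -0.65 at stage 46, in the same order.

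At stage 39 XL0c2j01 passed with -0.20 ± 0.07 (adjusted p = 0.0347), and XL0c2i24 did not with -0.14 (adjusted p = 0.107). The anterior signal of both was not well above background on either array of that stage. The next value sets the dim region at the lowest signal well above background, or at its own signal if higher. The spread between arrays is left out of it. By that measure XL0c2j01 was, on the means, at least 1.03-fold brighter in posterior endoderm there. It was no longer past the threshold without array A or array B of stage 39 (adjusted p = 0.295 and 0.0837). At stage 46 XL0c2j01, well above background in both regions on both arrays, was lower in anterior endoderm at -0.37 ± 0.07 (1.29-fold, adjusted p = 0.00383), which was lost without array B of that stage (adjusted p = 0.0721). XL0c2i24 had -0.15 (adjusted p = 0.0936), a bound of at least 1.04-fold. The ratio change from stage 39 to 46 was -0.01 (adjusted p = 0.93) and -0.17 (adjusted p = 0.187).

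The Xcer spot XL0c2i18 rose in ratio from stage 30 to 39, where endodermin and VegT fell. Its ratio was -0.88 and -0.84 at stage 30, 0.12 and -0.13 at stage 39, and 0.01 and -0.21 at stage 46. It was low on both stage 30 arrays and near 0 on the other 4. At stage 30 the mean was -0.86 ± 0.08 (1.81-fold lower in anterior endoderm, adjusted p = 0.000164), with 1.45% of probes lower. Its net signal was small, from 107 to 496 in anterior endoderm over the 6 arrays, and the anterior side of array B at stage 30 was not well above background. With plain background subtraction in place of normexp the stage 30 value was -1.73. At stages 39 and 46 it had 0.00 (95% interval -0.19 to 0.18, adjusted p = 0.957) and -0.10 (95% interval -0.29 to 0.09, adjusted p = 0.319). The authors' deposited table held no Xcer ratio at stage 30, so it does not show the low value there. For XL0c2i18 it gave -0.56 at stage 39 and -0.24 at stage 46, where its medians over all clones were -0.32 and -0.11.

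The Xcer ratio rose from stage 30 to 39 by 0.85 ± 0.11 (adjusted p = 0.000499) and stood 0.76 ± 0.11 above stage 30 at stage 46 (adjusted p = 0.00116). With plain background subtraction these changes were 1.72 and 1.60. Its anterior level was 8.14 and 7.69 at stage 30, 9.23 and 8.81 at stage 39, and 9.27 and 8.79 at stage 46. The stage 30 arrays were the lowest. The anterior rise from stage 30 to 46 was 1.11 ± 0.34 (adjusted p = 0.04995), which missed the threshold without any 1 of the 6 arrays (adjusted p from 0.0621 to 0.252). The posterior level was 9.02 and 8.53, 9.11 and 8.94, and 9.26 and 9.0, and no change there passed (adjusted p = 0.713 for stage 30 to 39). The other Xcer spot, XL0c2i19, was found on 1 of the 6 arrays and well above background on none. The authors' deposited table gave it -1.37 at stage 39, on the same side as endodermin and VegT, and -0.29 at stage 46.

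Other genes that act in the first steps of endoderm formation were taken from a list of ligands, transcription factors and secreted antagonists. The list, as reported here, held 33 spots of 12 genes. Neither spot of the ligand activin passed the filter, nor did those of the transcription factors mix1 and foxh1. At stage 30, 17 spots were tested, of which 10 were higher and 6 lower in anterior endoderm (median 0.38, against 0.01 for all probes). Of all probes, 28.6% were called higher and 27.7% lower there. At stage 39 it was 7 higher and 7 lower of 16 (median -0.12), where 31.4% of all probes were called higher and 31.7% lower. At stage 46 it was 3 higher and 6 lower of 18 (median -0.11, against 0.02 for all probes), where 30.4% were called higher and 25.2% lower. Some spots share a gene, so these are not counts of genes.

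Among the transcription factors, gata6, a zinc finger regulator of endoderm and heart, was mostly on the anterior side. All 4 of its spots were higher in anterior endoderm at stages 30 and 39, and at stage 46 2 were higher and 1 lower. Its spot XL107g24 had 0.86, 0.92 and 0.29 at the 3 stages, the largest of the 4 at stages 30 and 39. The brighter spot XL088d17 had 0.38, 0.54 and -0.20, and was the 1 called lower at stage 46. Otx2, a homeodomain factor of the head and anterior endoderm, had 0.82 ± 0.06 at stage 30 (adjusted p = 5.58e-05), -0.78 ± 0.06 at stage 39 (adjusted p = 2.49e-05) and -0.11 (adjusted p = 0.129) at stage 46. Goosecoid, a homeodomain factor of the organizer, had 0.00, -0.73 (adjusted p = 0.000126) and -0.14. The otx2 and goosecoid spots were thus lower in anterior endoderm at stage 39, as endodermin and VegT were, and gata6 was higher. Otx2 rests on 1 of 3 spots (XL0c2f23) and goosecoid on 1 of 2 (XL0c2a12), since the others did not pass the filter. Both come from the plate of the VegT spots. The part of whatever lit the lambda spots in their ratios was not tested.

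Among the secreted antagonists, the frizzled-related spot XL097i09, for a protein that binds Wnt ligands, had 0.49, -1.08 and -0.38 (adjusted p = 0.000769, 1.28e-05 and 0.00244). The follistatin spot XL078c03, for a binder of activin and BMP, ran the other way with -1.31 at stage 30 (adjusted p = 3.14e-05), 0.72 at stage 39 (adjusted p = 0.000138) and -0.10 at stage 46. All 4 follistatin spots were lower at stage 30, 2 of 3 tested were higher at stage 39, and 2 of 3 were lower at stage 46. The spot XL0c2b14 did not turn, with -0.42, -0.15 (adjusted p = 0.278) and -0.39. The chordin spots did not share a direction: of 4 tested at stage 39, 3 were lower and 1 was higher.

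**Figure D5:**
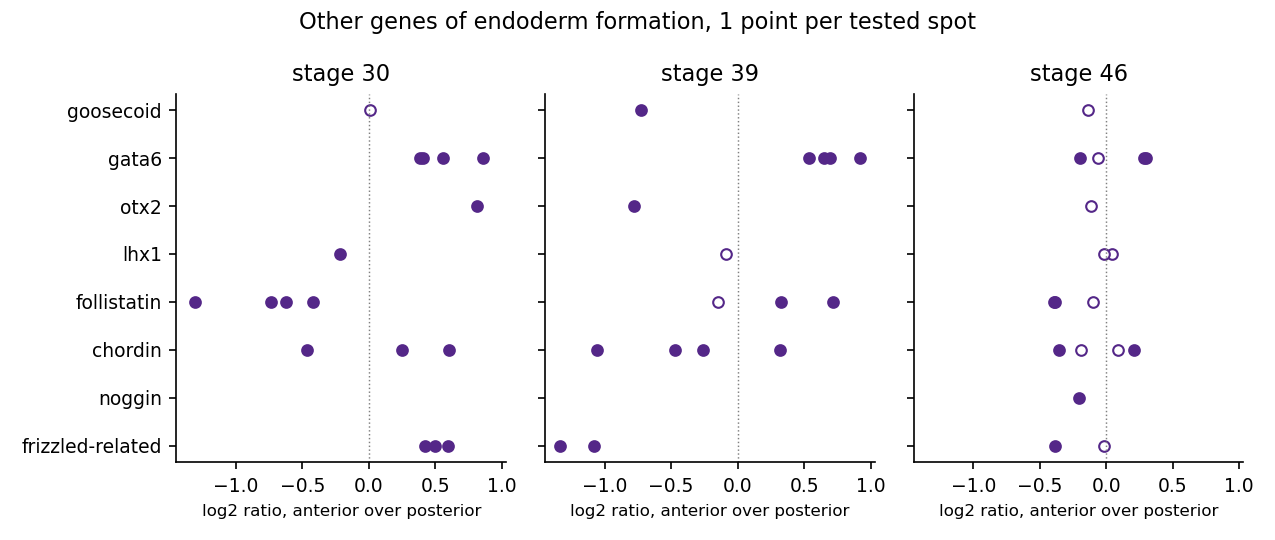
Mean log2 ratio of anterior over posterior endoderm (horizontal axis) for each tested spot of the other genes of endoderm formation (rows) at the 3 stages, with filled points past the adjusted p threshold of 0.05. The gata6 spots are above 0 at stages 30 and 39, and the otx2 and frizzled-related spots are above 0 at stage 30 and below it at stage 39.

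Most tested marker spots of other tissues were lower in anterior endoderm at stage 39, where 31.7% of all probes were called lower and 31.4% higher. Of 5 tested spots for nervous system genes 4 were lower in anterior endoderm and 0 higher (median -1.22), all 4 of them neurofilament. Of 9 skeletal muscle spots 8 were lower and 0 higher (median -0.55). Of 5 blood spots 4 were lower (median -0.41), of 3 epidermis spots 2 were lower (median -0.33), and of 8 spots for intestine and posterior genes 7 were lower (median -0.84). All spots of the blood list were named for erythrocyte membrane proteins, and whether these mark blood alone was not tested. Of 9 foregut and liver spots 5 were higher and 3 lower (median 0.34). At stage 30 the nervous system had 3 higher and 0 lower of 4 spots (median 0.52), and muscle had 4 higher and 1 lower of 7 (median 0.42), where 28.6% of all probes were called higher and 27.7% lower. Epidermis had 1 higher and 3 lower of 4 spots (median -0.84) and blood 0 higher and 1 lower of 4 (median 0.01) at stage 30. At stage 46, 30.4% of all probes were called higher and 25.2% lower. Blood then had 0 higher and 5 lower of 6 spots (median -0.77), and muscle 1 higher and 7 lower of 12 (median -0.25). The nervous system had 1 higher and 3 lower of 4 (median -0.305), and epidermis 1 higher and 2 lower of 3 (median -0.41). Intestine and posterior genes had 1 higher and 4 lower of 8, and foregut and liver 4 higher and 2 lower of 8.

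The summed normalised level of the 3 neurofilament spots in posterior endoderm was 13.26 and 13.32 at stage 30, 15.39 and 15.40 at stage 39, and 13.47 and 13.55 at stage 46 (log2). In anterior endoderm it was 13.88 and 13.79, 14.19 and 14.15, and 13.11 and 13.12. The posterior sum was thus highest on both stage 39 arrays, as was endodermin. For 6 muscle spots the posterior sum was 14.52 and 14.65 at stage 30, 14.32 and 14.66 at stage 39, and 14.63 and 14.62 at stage 46. The anterior sum was 14.77 and 14.79, then 13.96 and 14.35, then 14.27 and 14.25. This sum is mostly that of 1 bright alpha actin spot, XL073f12, with a mean log2 intensity of 13.90 against 9.51 to 11.13 for the troponin spots. Its ratio at stage 39 was -0.03, and those of the troponin spots in the sum ran from -1.44 to -0.26. For 3 blood spots the posterior sum ran from 12.02 to 12.78 at stages 30 and 39 and the anterior sum from 11.99 to 12.57. At stage 46 the blood sum was 14.19 and 14.59 in posterior and 12.59 and 12.83 in anterior endoderm. The posterior blood sum was thus highest at stage 46, where posterior endodermin was lower than at stage 39. Of the spots in this sum, XL072n11 and XL102b14 were both named for erythrocyte membrane protein 7. Their ratios at stage 46 were -1.72 and -1.80, against -0.75 for XL071c11. For 3 epidermis spots the posterior sum was 15.38 and 15.78 at stage 30, 12.70 and 12.48 at stage 39, and 11.85 and 11.75 at stage 46. The anterior sum was 14.83 and 14.90, then 12.35 and 12.07, then 11.88 and 11.64. The part of these tissues in the endodermin and VegT ratios was not tested.

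Spots most like endodermin and VegT were sought among 6225 named probes by the root-mean-square difference of the log2 ratio over the 6 arrays. Spots with an uninformative or repeated name, or with the name of the reference spot, were passed over. For endodermin XL099n14 the nearest of the rest were complement C3b/C4b inactivator (0.19), a Ca2+-ATPase (0.27) and sigma receptor 1 (0.28), with 2, 5 and 6 spots closer among all that passed the filter. The other endodermin clone stood at 0.27, with 4 spots closer. For VegT XL0c2c17 they were the coatomer gamma-2 subunit (0.11), a brush border protein precursor (0.12) and a human cDNA with no protein name (0.12), with 1, 4 and 5 spots closer. Its twin spot XL0c2c18 stood at 0.24, with 174 spots closer. These are descriptions of the ratio over 6 arrays and carry no test.

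The array also held 6 spots named by their 3′ read after the human A2M gene, which encodes alpha-2-macroglobulin, of which 5 passed the filter. These spots were chosen after the endodermin values were known. They ran against endodermin, with ratios from -0.62 to -0.13 at stage 30 and from 0.71 to 1.06 at stage 39. At stage 39 all 5 passed as higher in anterior endoderm (limma, adjusted p from 2.00e-05 to 0.0109), as did 31.4% of all probes. At stage 46 they had 0.09 to 0.55.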

How the data were processed

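Anterior and posterior endoderm RNA was measured at 3 stages on 6 arrays, 2 a stage, deposited as 3 samples. The deposited scanner files held linear intensity medians of each spot and its background, with background SD, the percent of saturated pixels, and a score that marked spots not found. Per the labels, slides were scanned on a GenePix scanner at a gain set by the first saturated signal. The authors also deposited a single ratio for each clone at each stage, made with GeneData Refiner and Expressionist per the labels. The median log2 values of these ratios were -0.04, -0.32 and -0.11 at stages 30, 39 and 46, so they were not centred. Their direction, anterior over posterior, was read from their match to the scanner values.

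From the scanner files, background was corrected with normexp (offset 50) and ratios were normalised within arrays by loess (span 0.3) in R 4.3.3 with limma 3.58.1 (files read with data.table, version 1.17.8). The 231 control or unnamed control-plate spots and spots not found had no weight and were left out. A spot was tested if well above background (over 2 background SDs) in 1 channel on at least 2 of 6 arrays and if found on every array of the comparison. The limma model held all 6 arrays, with stage means as its terms (3 residual degrees of freedom) and empirical Bayes moderation. Levels came from the separate-channel fit after Aquantile (intraspot correlation 0.95). Tests were two-sided, with Benjamini-Hochberg adjustment over all probes of a comparison and a threshold of 0.05. The number of arrays limits the precision. The code was tested on simulated data.

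The members, lists and alternatives were chosen with earlier results of these data known, and list patterns were written after the spot names were read. All matching spots are named whatever their values. Of other genes, those well above background on all arrays were eligible, and hoxa10, transferrin, ficolin and chordin were added after their values were seen. Alternatives changed the background correction, the normalisation, the filter and the arrays. Names are the files' annotations, often cut short. RefSeq (assembly Xenopus_laevis_v10.1) gave synonyms and neighbours only. From the list of endoderm formation, 1 gene is not reported here.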

Additional observations from a re-analysis of the deposited data

Results flagged for a closer look

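The regional ratio differed between stages, by the contrast of stage means in the limma fit, for 5 spots. From stage 30 to 39 the log2 ratio of anterior over posterior changed by -2.0 for endodermin XL068h01, -2.12 for endodermin XL099n14, -1.2 for VegT XL0c2c17, -1.37 for VegT XL0c2c18 and 0.85 for Xcer XL0c2i18. From stage 39 to 46 it changed by 1.74 and 1.91 for the endodermin spots and by 0.94 and 0.62 for the VegT spots, in the same order. From stage 30 to 46 it changed by -0.26 for XL0c2c17, -0.75 for XL0c2c18 and 0.76 for Xcer XL0c2i18. These contrasts share arrays, and 50.2% to 60.1% of all probes passed in them.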

How the results depend on the processing

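The counts of endodermin, VegT and mixer spots past the threshold stayed within 1.5 times under most alternatives. At stage 39 the count was 2 of 2 spots tested (against 5 of 6) where both channels had to be well above background on all arrays of the stage, since fewer spots were tested. Of all probes 63.9% passed there (against 63.1%). At stage 46 it was 5 (against 3) with no background correction, mixer XL0c2i24 among them, where 57.1% of all probes passed (against 55.6%). For the ratio change from stage 30 to 46 it was 1 (against 2) with plain background subtraction, where 52.3% of all probes passed (against 53.3%). The cause was not tested. With each array left out in turn the count ran from 2 to 3 at stage 30, 4 to 5 at stage 39 and 2 to 4 at stage 46. It was 4 throughout for the ratio changes from stage 30 to 39 and from 39 to 46, and 1 to 3 for the change from 30 to 46. Within anterior endoderm it ran from 0 to 1 for stage 39 over 30 and was 0 throughout for both other contrasts. Within posterior endoderm it ran from 1 to 2 for stage 39 over 30 and from 0 to 2 for stage 46 over 39, and was 0 for stage 46 over 30. Where a stage kept 1 array, that array was assumed to vary like the others, and the separate-channel fit kept the intraspot correlation of all 6 arrays. The share of all probes past the threshold also shifted with the array left out. The counts with an array left out therefore cannot be read as a result about these spots alone.

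Of single-spot values, 614 kept direction and call, 32 lost and 14 gained the call, and 34 turned sign, none of which had passed. With each array left out in turn, the ratio of VegT XL0c2c17 ran from -0.001 to 0.18 at stage 30, that of Xcer from -0.13 to 0.12 at stage 39 and from -0.21 to 0.014 at stage 46, and that of endodermin XL068h01 from -0.075 to 0.15 at stage 46. The ratio change from stage 39 to 46 ran from -0.22 to 0.032 for Xcer and from -0.092 to 0.07 for mixer XL0c2i24. In anterior endoderm, stage 46 over 30 ran from -0.64 to 0.09 for VegT XL0c2c17 and from -0.32 to 0.045 for endodermin XL068h01, and stage 46 over 39 from -0.23 to 0.26 for Xcer. In posterior endoderm, stage 39 over 30 ran from -0.23 to 0.22 for VegT XL0c2c18 and from -0.015 to 0.46 for Xcer. There, stage 46 over 39 ran from -0.48 to 0.34 for XL0c2c18 and from -0.018 to 0.23 for Xcer, and stage 46 over 30 from -0.28 to 0.26 for XL0c2c17, from -0.49 to 0.34 for XL0c2c18 and from -0.18 to 0.43 for endodermin XL068h01. With median centring the ratio changes from 39 to 46 of Xcer (0.074) and XL0c2i24 (0.14), the posterior change of XL0c2c18 from 39 to 46 (0.001) and that of XL0c2c17 from 30 to 46 (0.007) turned. With plain subtraction the ratio changes from 39 to 46 of XL0c2i24 (0.17) and XL0c2j01 (0.30) turned, and with no background correction Xcer at stage 39 (0.003) and the change of XL0c2i24 (0.003). With quantile normalisation the anterior Xcer change from 39 to 46 (-0.026) and the posterior XL0c2c17 change from 30 to 46 (0.009) turned, and in the authors' table endodermin XL068h01 at stage 46 (-0.016). The cause was not tested. Relative to its own median, the authors' table gave -1.37 and -1.14 for endodermin and -0.89 and -0.96 for VegT at stage 39.

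Uneven local background limited XL068h01 and XL0c2c18, and low signal limited mixer and Xcer. Within a stage both regions shared each array, so each ratio is itself a comparison within an array. No paired analysis was possible because each stage is 1 deposited sample, and no label pairs an array of one stage with an array of another.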
